A study of Mus musculus with 6 samples.

Results

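The genes described here are 9 direct outputs of the circadian clock in mouse liver, *Dbp*, *Tef*, *Hlf*, *Nfil3*, *Ciart*, *Bhlhe40*, *Bhlhe41*, *Rora* and *Usp2*. They were chosen by name as the PAR bZIP factors and other direct clock targets, not by a threshold on any measured value. Earlier results of these data were known when the list was chosen, so its counts beside all genes are a description only. The files held transcripts of 54115 genes, of which 12524, including all 9 of these genes, passed the filter on low read counts. Of the 9, 8 encode transcriptional regulators and *Usp2* encodes a deubiquitinating enzyme. RNA-seq was performed on whole livers of 24-month-old male mice collected after 16 h of fasting, 3 WT and 3 *Sirt7* KO, each labelled as a separate biological replicate. The *Sirt7* KO allele is a germline deletion, was backcrossed to C57BL/6J, and both genotypes were littermates from crosses of heterozygous parents. All 6 mice therefore shared age, sex and fasting, and came from the same line, which was backcrossed from a mixed background. The genotype was the only labelled difference. The clock time at which each liver was taken is not given in the sources used here. The question asked of these genes was whether the mRNA output of the clock differed between the genotypes.

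The core clock is a loop in which the CLOCK and BMAL1 (encoded by *Arntl*) dimer binds E-box elements and drives its own repressors, and the same E-boxes drive a first layer of output genes. DBP, TEF and HLF form the proline and acidic amino acid-rich (PAR) bZIP family, which activates genes through D-box elements and in liver drives enzymes of drug, heme and sterol metabolism. NFIL3 (also E4BP4) binds the same D-boxes and represses. CIART (also CHRONO), BHLHE40 (DEC1) and BHLHE41 (DEC2) dampen E-box transcription, RORA activates *Arntl* through ROR elements, and USP2 removes ubiquitin from clock proteins and other substrates. In a mouse kept in a light-dark cycle *Dbp* is among the most strongly rhythmic liver mRNAs and runs close to opposite in phase to *Nfil3* and *Arntl*, so a single harvest catches each gene at 1 point of its cycle.

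Promoter sequences are shown for the 4 genes with the largest differences below, because the E-box is the element through which the clock is known to reach this gene class. They come from RefSeq on GRCm38.p6 and span 250 bases before to 50 bases after the transcription start, 5′ to 3′ on the gene's own strand, in lower case with each E-box (CACGTG) in capitals. The *Ciart* promoter is at chr3:95882179-95882478 on the minus strand, the upstream and downstream *Tef* promoters are at chr15:81802423-81802722 and chr15:81811164-81811463 on the plus strand, the *Dbp* promoter is at chr7:45704997-45705296 on the plus strand, and the *Usp2* promoter, that of its downstream start, is at chr9:44084670-44084969 on the plus strand.
Ciart: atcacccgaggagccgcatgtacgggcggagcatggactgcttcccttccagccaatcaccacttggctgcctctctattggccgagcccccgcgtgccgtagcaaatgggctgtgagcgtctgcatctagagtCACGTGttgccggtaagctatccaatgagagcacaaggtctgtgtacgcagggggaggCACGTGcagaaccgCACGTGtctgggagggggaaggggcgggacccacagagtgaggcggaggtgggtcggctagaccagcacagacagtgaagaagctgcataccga
Tef upstream: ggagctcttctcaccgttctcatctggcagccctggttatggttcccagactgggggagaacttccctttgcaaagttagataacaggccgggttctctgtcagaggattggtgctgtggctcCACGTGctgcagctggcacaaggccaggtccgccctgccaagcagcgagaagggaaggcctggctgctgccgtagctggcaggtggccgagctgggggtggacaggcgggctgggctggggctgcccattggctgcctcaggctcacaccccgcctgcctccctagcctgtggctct
Tef downstream: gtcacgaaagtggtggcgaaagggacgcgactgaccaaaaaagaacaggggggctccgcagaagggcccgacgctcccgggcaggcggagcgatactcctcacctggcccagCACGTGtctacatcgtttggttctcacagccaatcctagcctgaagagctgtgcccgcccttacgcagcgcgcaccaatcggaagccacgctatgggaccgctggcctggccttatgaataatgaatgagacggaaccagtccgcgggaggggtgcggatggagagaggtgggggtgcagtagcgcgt
Dbp: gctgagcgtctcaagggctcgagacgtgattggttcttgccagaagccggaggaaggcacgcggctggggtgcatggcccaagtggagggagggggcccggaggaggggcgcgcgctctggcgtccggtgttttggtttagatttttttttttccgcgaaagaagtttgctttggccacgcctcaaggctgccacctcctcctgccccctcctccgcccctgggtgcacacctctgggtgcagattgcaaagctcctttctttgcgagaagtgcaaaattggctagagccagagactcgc
Usp2: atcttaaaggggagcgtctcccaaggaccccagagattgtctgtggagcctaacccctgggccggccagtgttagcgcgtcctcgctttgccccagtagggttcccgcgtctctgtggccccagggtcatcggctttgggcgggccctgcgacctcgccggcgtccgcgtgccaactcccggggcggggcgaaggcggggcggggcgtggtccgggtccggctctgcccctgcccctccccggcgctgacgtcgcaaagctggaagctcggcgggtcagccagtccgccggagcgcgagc
The *Ciart* promoter held 3 E-boxes, starting at positions −116, −58 and −44 relative to the RefSeq transcription start. Each *Tef* window held 1, at −127 from the upstream and −138 from the downstream RefSeq start. The upstream window lies after the annotated start of the upstream *Tef* transcript (ENSMUST00000109553.9, chr15:81802421). Its E-box is therefore not before that start. *Bhlhe41* also held 1, at −153. No CACGTG lay in these windows of *Dbp*, *Hlf*, *Nfil3*, *Rora* or *Usp2*, which says only that the letters are absent from these bases. *Dbp* is known for E-boxes inside the gene, and its transcript with the most reads (ENSMUST00000080885.11) starts within the window, at chr7:45705088. The *Rora* window is that of its upstream start. The start of the *Rora* transcript with the most reads (ENSMUST00000113624.2, chr9:69289682) was not searched. The word was found in 7.15% of 32851 mouse promoters of the same length, and 3 or more copies in 29 of them (0.0883%). On both strands, the variant CACGTT (4.68% of all promoters) and the D-box TTANGTAA (2.32%) were not found in the 9 promoters of the 8 genes that had a sequence, and the ROR element core AGGTCA (16.3%) was found once, in *Nfil3*, at −12. *Bhlhe40* had no entry.

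The libraries held 10608035 to 13424776 reads assigned to transcripts in WT livers and 9994860 to 11107388 in *Sirt7* KO livers. Read counts per member ranged from 17 for *Ciart* in *Sirt7* KO replicate 1 to 1979 for *Tef* in WT replicate 3. *Sirt7* itself was at 55.2, 45.5 and 47.3 CPM (reads scaled to library size) in WT livers and at 28.6, 41.8 and 40.8 in *Sirt7* KO livers. All 3 KO livers were below all 3 WT livers (log2 fold change −0.41, SE 0.18, adjusted p = 0.423, edgeR), and reads assigned to the longest coding transcript (ENSMUST00000080202.11) were 429, 381 and 408 against 124, 135 and 77.5. Per length the direction turned, with 34.4, 28.3 and 27.3 TPM (abundance scaled for length and library size) in WT and 34.7, 49.9 and 68.0 TPM in KO livers. Reads given to the shorter coding transcripts ENSMUST00000146809.1 (43.0, 0.0 and 65.3 against 83.5, 118.8 and 192.2) and ENSMUST00000106183.2 (2.12, 5.12 and 0.0 against 50.5, 54.1 and 93.3) were higher in every KO liver. Reads of the gene thus remained in KO mice, and since the deleted exons are not given in the sources used here, its summed level is no check of the labels. Hepatocyte markers dominated all livers, with a summed level over 5 genes (*Alb*, *Apoa1*, *Ttr*, *Cps1*, *Hnf4a*) of 39630 to 43860 CPM in WT and 41020 to 49650 CPM in KO mice.

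None of the 9 genes passed the test for a genotype difference (edgeR quasi-likelihood test, Benjamini-Hochberg adjusted p under 0.05 and a fold change over 1.5), and of all tested genes 1 did (0.00798%). Before adjustment, 4 of the 9 were lower in *Sirt7* KO mice at p under 0.05 (*Tef*, *Usp2*, *Ciart* and *Dbp*), where 4.78% of all tested genes were, and 0 were higher, where 6.54% were. Their mean mRNA expression in KO mice was 1.84-fold (*Tef*) to 4.24-fold (*Usp2*) below WT. The median log2 fold change of the 9 genes was −0.33, with 6 of 9 lower, beside a median of −0.0061 and 50.66% lower over all tested genes. With DESeq2, 1 member was called with length offsets (*Ciart*, adjusted p = 0.0174, 1.81% of all genes called) and 1 without (*Tef*, adjusted p = 0.0243, 2.11% called). The SE of *Ciart* was 0.52 with length offsets and 0.90 without (adjusted p = 0.323, DESeq2). In *Sirt7* KO replicate 1, 42.9 and 43.3% of its 17 reads were assigned to short transcripts of 609 and 646 bases. Per length that liver was at 2.91 TPM, against 4.54 and 4.65 in the other KO livers. In CPM it was at 1.56 against 6.25 and 7.22. The *Ciart* call thus leans on few reads. Without the filter on low counts, edgeR called 4 members (*Dbp*, *Tef*, *Ciart*, *Usp2*; 2.27% of genes called). In that fit the SEs of *Dbp*, *Usp2* and *Rora* were 0.19, 0.21 and 0.19, against 0.52, 0.65 and 0.14 with the filter. The SEs of that fit thus barely followed each gene's own spread between livers, which limits what its calls mean. In whole-liver RNA, fewer cells expressing a gene and less mRNA per cell cannot be told apart.

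**Figure D1:**
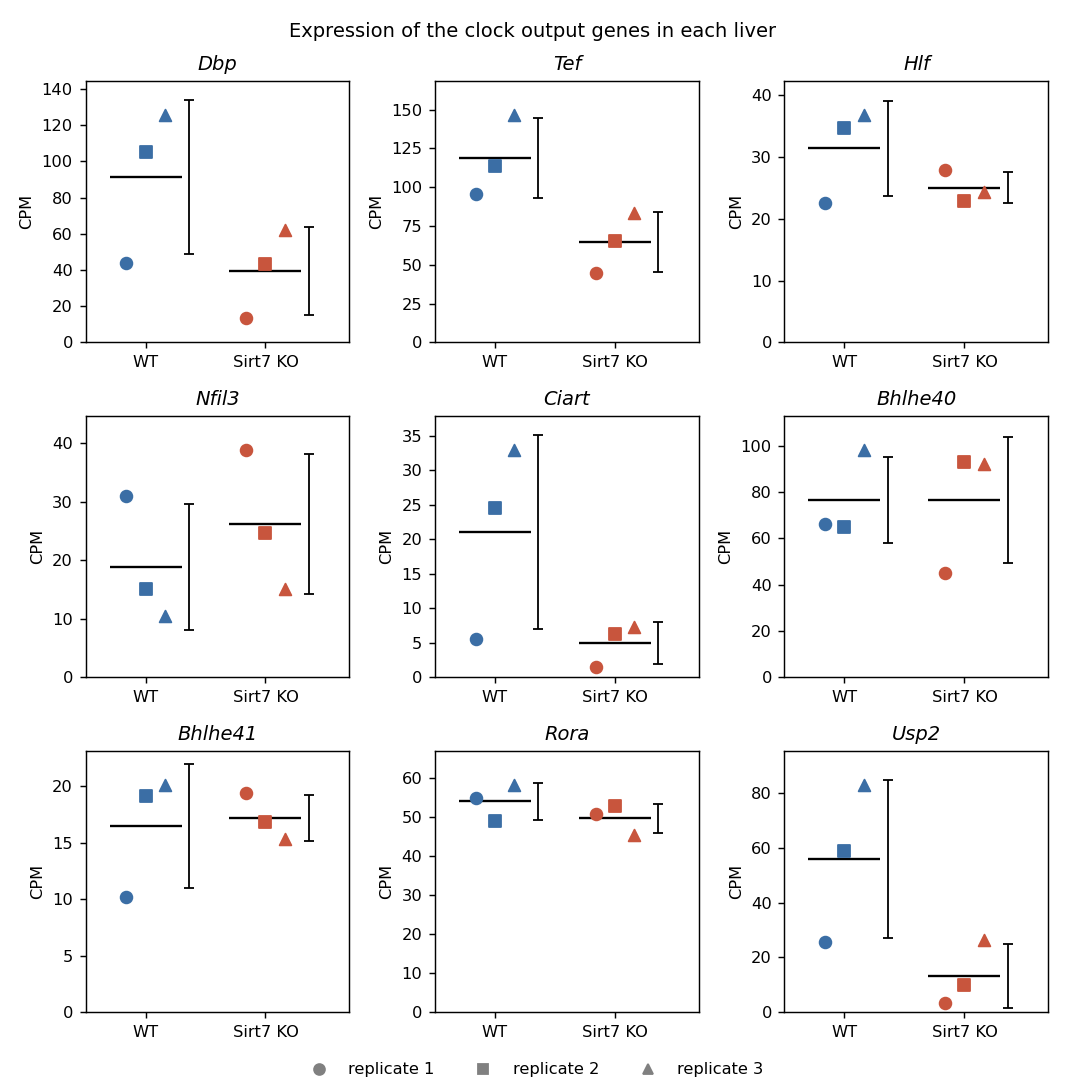
mRNA expression of the 9 genes in each liver, in CPM on linear axes starting at 0. Points are livers (circle, square and triangle for replicates 1, 2 and 3 of each genotype), horizontal lines are means and bars to their right are ± SD (n = 3). Only *Tef* shows 2 groups that do not overlap, and *Rora* has the smallest spread, 1.28-fold from lowest to highest liver.

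Among the PAR bZIP activators, *Dbp* (ENSMUSG00000059824.12, chr7:45705088-45710203, plus strand) was at 43.9, 105.3 and 125.6 CPM in WT livers and at 13.5, 43.4 and 61.9 CPM in *Sirt7* KO livers. WT replicate 1 lay within the KO range, and all 3 KO livers were below the WT mean. The means were 91.6 ± 42.5 CPM and 39.6 ± 24.4 CPM (SD, n = 3), a log2 fold change of −1.21 (SE 0.52, edgeR adjusted p = 0.421). The lowest and highest livers differed 9.33-fold, and the SD within genotypes, 0.98 on the log2 scale, was larger than that of 97.7% of tested genes. Sequence shared with a neighbour touches this value. The last part of *Dbp* overlaps *Sphk2*, a sphingosine kinase gene on the opposite strand, over 539 exonic bases (18.0% of *Dbp* exons), and the library kit does not mark strand. *Sphk2*, named here only for this overlap, was at 59.4, 53.4 and 36.0 CPM in WT and 69.6, 70.0 and 55.0 CPM in KO mice (log2 fold change 0.39, adjusted p = 0.528).

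*Tef* (ENSMUSG00000022389.15, chr15:81802421-81826863, plus strand) was at 95.4, 113.8 and 146.4 CPM in WT livers and at 44.8, 65.4 and 83.2 CPM in *Sirt7* KO livers. It was the only member whose groups did not overlap, with every KO liver below every WT liver, a pattern found in 8.09% of all tested genes for lower and in 8.74% for higher, where 0 members had it. The means were 118.5 ± 25.8 and 64.5 ± 19.3 CPM, a log2 fold change of −0.88 (SE 0.24, edgeR adjusted p = 0.224). *Hlf* (ENSMUSG00000003949.16, chr11:90336536-90390895, minus strand) was at 22.6, 34.8 and 36.8 CPM in WT livers and at 27.8, 22.9 and 24.4 CPM in KO mice. Its groups overlapped, because WT replicate 1 was the lowest of the 6 livers, and the log2 fold change was −0.33 (SE 0.20, adjusted p = 0.592). Per length the picture differed. In TPM, *Hlf* was at 8.11, 10.9 and 10.8 in WT and at 6.42, 4.92 and 6.52 in KO mice, groups that did not overlap, and edgeR with length offsets gave a log2 fold change of −0.69 (adjusted p = 0.341). Reads assigned to the short coding transcript ENSMUST00000176001.1 (619 bases) made up 3.71 to 6.34% of *Hlf* reads in WT and 0.0 to 2.01% in KO mice. These were only 16.9, 18.8 and 18.4 reads in WT and 6.10, 0.0 and 4.59 in KO livers. Per length they weigh heavily beside the main transcript of 5642 bases, so the TPM difference leans on few reads.

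*Nfil3* (ENSMUSG00000056749.7, chr13:52967209-52981073, minus strand), the repressor that competes for D-boxes, had the mirror order. It was at 30.9, 15.1 and 10.4 CPM in WT livers and at 38.8, 24.7 and 15.0 CPM in *Sirt7* KO livers. In both genotypes the liver with the most *Dbp* and *Tef* mRNA had the least *Nfil3* mRNA, and the liver with the least had the most. The KO mean was higher (26.2 ± 12.0 against 18.8 ± 10.7 CPM), with 2 of 3 KO livers above the WT mean and a log2 fold change of 0.48 (SE 0.43, adjusted p = 0.725), within the spread between livers.

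The mRNA of the activator *Dbp* was set against that of the repressor *Nfil3*, and protein and D-box activity were not measured. The log2 ratio of *Dbp* to *Nfil3* reads within each liver does not depend on library scaling. It was 0.51, 2.80 and 3.59 in WT livers and −1.53, 0.81 and 2.04 in *Sirt7* KO livers. *Sirt7* KO replicate 1 was the only liver with fewer *Dbp* than *Nfil3* reads, and the groups overlapped. The means were 2.30 ± 1.60 and 0.44 ± 1.81, a difference of −1.86 (exact two-sided permutation test, p = 0.3, where 3 against 3 cannot give less than 0.1). The log2 ratio of *Dbp* to *Arntl*, the gene known to peak in the opposite phase, was 3.25, 5.07 and 6.78 in WT livers and 0.47, 2.09 and 3.92 in KO mice. Here too the groups overlapped, with KO replicate 3 above WT replicate 1. The difference of means was −2.88 (5.03 ± 1.76 against 2.16 ± 1.73, exact permutation p = 0.2).

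**Figure D2:**
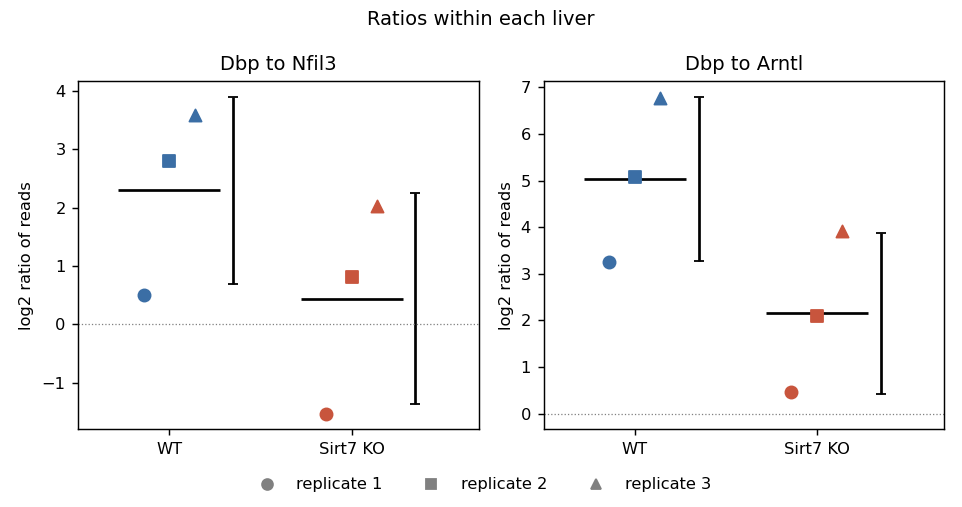
Log2 ratio of *Dbp* to *Nfil3* reads (left) and of *Dbp* to *Arntl* reads (right) in each liver, by genotype. Points are livers, horizontal lines are means and bars are ± SD (n = 3), and the dotted line marks equal reads. In both ratios the KO mean is lower (by 1.86 and 2.88) and the ranges of the genotypes overlap.

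Of the E-box repressors, *Ciart* (ENSMUSG00000038550.10, chr3:95878503-95882251, minus strand) was at 5.59, 24.6 and 32.9 CPM in WT livers and at 1.56, 6.25 and 7.22 CPM in *Sirt7* KO livers. WT replicate 1 was the single WT liver inside the KO range. The means were 21.03 ± 14.0 and 5.01 ± 3.03 CPM, 4.22-fold lower in KO mice on the fitted scale (log2 fold change −2.08, SE 0.66, edgeR adjusted p = 0.283). Highest and lowest livers differed 21.15-fold, on 445 and 17 reads. The words of 31 bases in its transcripts are shared with the pseudogene *Gm9176* for 20.8%, to which no read was assigned in any liver.

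*Bhlhe40* (ENSMUSG00000030103.11, chr6:108660629-108666925, plus strand) was at 66.3, 65.0 and 98.1 CPM in WT livers and at 45.1, 92.8 and 91.9 CPM in *Sirt7* KO livers. The group means were nearly equal (76.5 ± 18.7 and 76.6 ± 27.3 CPM, log2 fold change 0.0017, SE 0.28, adjusted p = 0.998), and the sign of the difference turned under 5 of 10 other ways of scaling or fitting the counts. *Bhlhe41* (ENSMUSG00000030256.11, chr6:145858243-145865558, minus strand) was at 10.2, 19.1 and 20.1 CPM in WT livers and at 19.4, 16.9 and 15.3 CPM in KO mice. WT replicate 1 was again the lowest liver, the others lay within 15.3 to 20.1 CPM, and the log2 fold change was 0.06 (SE 0.26, adjusted p = 0.953; −0.03 with scaling by total counts). Over 19.0% of its exonic bases *Bhlhe41* overlaps *Gm43909* on the opposite strand, to which 0 to 4 reads a liver were assigned. Of the 3 E-box repressors, *Ciart* alone had a KO mean more than 1 SD from its WT mean.

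*Rora* (ENSMUSG00000032238.17, chr9:68653786-69388246, plus strand) was the steadiest member, at 55.0, 49.0 and 58.4 CPM in WT livers and at 50.9, 52.9 and 45.6 CPM in *Sirt7* KO livers. All 6 livers lay within 1.28-fold, the spread within genotypes (0.12 on the log2 scale) stood at percentile 7.63 of all tested genes, and the log2 fold change was −0.12 (SE 0.14, adjusted p = 0.796; 0.03 in edgeR with length offsets). *Usp2* (ENSMUSG00000032010.15, chr9:44067021-44095627, plus strand) lay at the other end. It was at 25.6, 58.8 and 83.0 CPM in WT livers and at 3.21, 10.1 and 26.2 CPM in KO mice, a 25.9-fold range. The groups overlapped only because KO replicate 3 was just above WT replicate 1. The means were 55.8 ± 28.8 and 13.2 ± 11.8 CPM, a log2 fold change of −2.08 (SE 0.65, edgeR adjusted p = 0.272).

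Between genes, levels can be compared per length only. In TPM, the order of WT means was *Dbp* (64.5 ± 26.9), *Usp2* (44.9 ± 23.9), *Tef* (32.9 ± 12.1), *Bhlhe40* (25.8 ± 5.89), *Ciart* (15.7 ± 10.2), *Rora* (14.9 ± 3.57), *Hlf* (9.94 ± 1.59), *Nfil3* (9.08 ± 5.76) and *Bhlhe41* (2.32 ± 0.68). Each neighbouring pair in this order differed by less than the larger of its SDs, except *Rora* and *Hlf*, and *Nfil3* and *Bhlhe41*. In KO mice the means ran *Bhlhe40* (25.9 ± 13.1), *Dbp* (25.5 ± 17.6), *Tef* (16.5 ± 5.64), *Rora* (14.6 ± 2.29), *Usp2* (12.1 ± 14.6), *Nfil3* (11.8 ± 4.95), *Hlf* (5.95 ± 0.90), *Ciart* (4.03 ± 0.98) and *Bhlhe41* (2.37 ± 0.19). From *Bhlhe40* down to *Nfil3* these neighbours differed by less than the larger SD, and the pairs from *Nfil3* down to *Bhlhe41* by more. The SD of *Ciart* in KO mice was small in TPM beside that in CPM (5.01 ± 3.03). Its TPM in KO replicate 1 rested on 17 reads, mostly assigned to short transcripts, so its place in this order is uncertain. Between genotypes, the TPM means of *Bhlhe40*, *Rora*, *Nfil3* and *Bhlhe41* differed by less than 1 SD of either group, and those of *Dbp*, *Usp2*, *Tef*, *Ciart* and *Hlf* by more than both SDs.

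The livers of 1 genotype were not alike. WT replicate 3 had the highest CPM for 8 of 9 members, all but *Nfil3*, and *Sirt7* KO replicate 1 the lowest for 5 and the highest for *Nfil3*. *Dbp*, *Ciart* and *Usp2* had within-genotype SDs above those of 97.7 to 98.7% of tested genes, *Nfil3* above 94.0%, and *Tef* above 68.4%. Leaving out WT replicate 1 raised the count of members at unadjusted p under 0.05 from 4 to 6 (*Hlf* as lower and *Nfil3* as higher were added), and leaving out WT replicate 3 lowered it to 2 (*Tef* and *Usp2*). Leaving out KO replicate 1 brought *Dbp* to a log2 fold change of −0.80 (SE 0.39, adjusted p = 0.349), and leaving out KO replicate 3 brought *Usp2* to −3.08 (SE 0.62, adjusted p = 0.324). No member was called in any of these fits. Time of collection cannot be told apart from these differences between livers, since no source used here gives it.

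**Figure D3:**
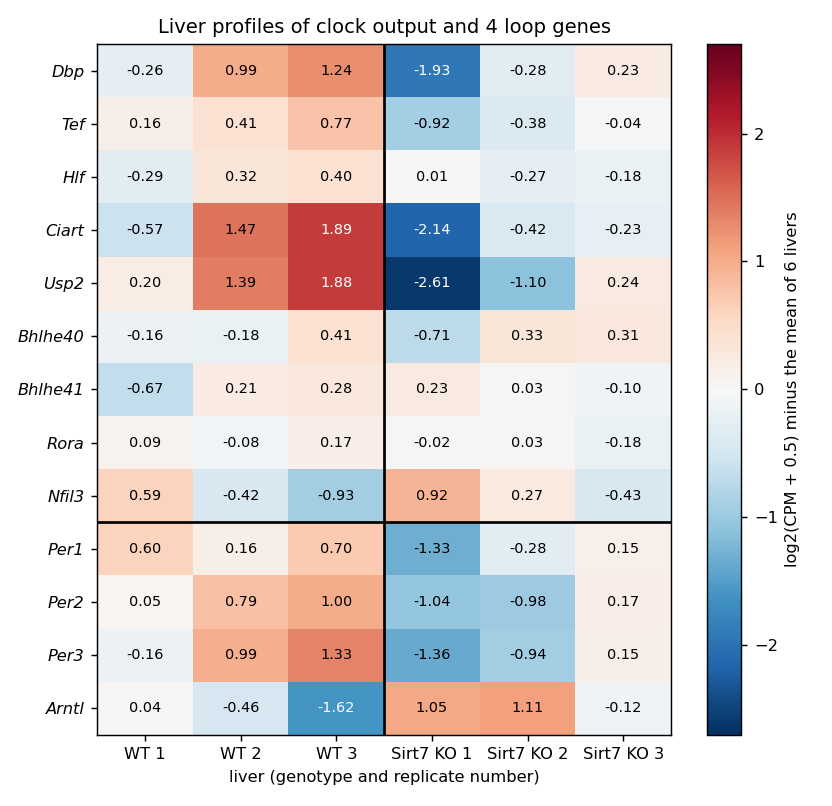
Log2(CPM + 0.5) of the 9 genes (above the line) and of *Per1*, *Per2*, *Per3* and *Arntl* (below it) in each liver, minus the mean of the 6 livers. Red is higher and blue lower, and each cell prints its value. *Ciart* and *Usp2* run from 1.89 and 1.88 in WT replicate 3 to −2.14 and −2.61 in KO replicate 1, while *Nfil3* and *Arntl* have the opposite order in these livers.

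Likeness to *Dbp* was measured over the 6 livers as the root mean square (RMS) difference of centred log2 CPM. It covered 6671 tested genes outside the list with a mean of at least 10 CPM, and the other members were ranked together with these. It is a description, and the genotypes are part of it. Of the other members, *Ciart* (RMS 0.41, rank 2), *Tef* (0.55, rank 6) and *Usp2* (0.57, rank 7) were near *Dbp*. *Bhlhe40* (rank 122) and *Hlf* (rank 590) followed, *Rora* and *Bhlhe41* were at ranks 2648 and 3249, and 98.7% of genes were closer than *Nfil3* (RMS 1.65). The 5 closest genes outside the list were *Per3* (0.36), a period gene of the core loop, *Alas1* (0.42), the rate-limiting enzyme of heme synthesis, *Esrra* (0.43), the estrogen-related receptor that drives mitochondrial genes, *Cyp2a5* (0.50), a coumarin hydroxylase, and *Per1* (0.59). Their log2 fold changes were −1.47, −1.40, −0.88, −0.48 and −0.90, and none was called (adjusted p = 0.166 to 0.709, edgeR).

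Of 11 core loop genes, 10 were tested (all but *Npas2*), 7 were lower and 3 higher in *Sirt7* KO mice, with a median log2 fold change of −0.11. None was called, while at unadjusted p under 0.05 there were 3 lower (*Per1*, *Per2*, *Per3*) and 1 higher (*Arntl*). Over all tested genes, 4.78% were lower and 6.54% higher at that p. *Per3* was at 12.0, 27.3 and 34.7 CPM in WT and 4.95, 6.78 and 15.0 CPM in KO mice (log2 fold change −1.47, SE 0.47, adjusted p = 0.281). *Per2*, its paralog, was at 6.61, 11.3 and 13.2 against 2.84, 2.97 and 7.22 CPM (−1.26, SE 0.41, adjusted p = 0.294). *Arntl* had the higher mean in KO mice, at 4.57, 3.08 and 1.11 CPM in WT and 9.71, 10.2 and 4.05 CPM in KO mice (1.45, SE 0.52, adjusted p = 0.339). Its KO replicate 3 lay below WT replicate 1. The order of *Arntl* was the reverse of that of *Per3* and *Per2* in WT livers, but not between KO replicates 1 and 2. *Nr1d1*, encoding REV-ERBα and also an E-box output, was chosen after its values were seen. It was at 77.9, 97.4 and 83.6 CPM in WT and 70.4, 88.7 and 97.3 CPM in KO mice (−0.01, SE 0.17, adjusted p = 0.986), so the E-box outputs did not all share the *Dbp* pattern.

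Of 8 genes known as PAR bZIP targets in liver, 7 were tested (all but *Cyp2a4*), 4 were lower and 3 higher, with a median log2 fold change of −0.48. None was called, and 3 were lower at unadjusted p under 0.05, each with groups that did not overlap. Of all tested genes, 4.78% were lower at that p and 8.09% were lower without overlap. The list was chosen with earlier results known, so its counts are a description only. *Nr1i3*, the xenobiotic receptor CAR, was at 451.6, 630.0 and 712.8 CPM in WT and 310.4, 288.0 and 326.5 CPM in *Sirt7* KO livers (log2 fold change −0.96, SE 0.19, adjusted p = 0.145), a much tighter KO group than that of *Dbp*. *Alas1* was at 646.6, 1070 and 1434 against 274.0, 400.2 and 521.5 CPM (−1.40, SE 0.32, adjusted p = 0.166). *Por*, the electron donor of microsomal P450 enzymes, was at 608.2, 697.1 and 765.1 against 348.2, 558.9 and 540.3 CPM (−0.52, SE 0.21, adjusted p = 0.386). The P450 targets went both ways, from −0.48 for *Cyp2a5* to 0.58 for *Cyp2b10*.

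Of 8 other rhythmic liver outputs, all tested, 5 were lower and 3 higher, with a median log2 fold change of −0.27, 0 called and 2 lower at unadjusted p under 0.05. Among all tested genes, 4.78% were lower at that p and 8.09% were lower without overlap. *Wee1*, a G2/M kinase, was at 2.46, 12.2 and 10.4 CPM in WT and 3.11, 1.59 and 1.35 CPM in KO mice (−2.04, SE 0.59, adjusted p = 0.238). WT replicate 1 was again low, below KO replicate 1. *Nampt*, the rate-limiting enzyme of NAD salvage, was at 25.6, 25.4 and 34.3 against 21.2, 15.9 and 17.8 CPM without overlap (−0.63, SE 0.18, adjusted p = 0.243), and *Gys2*, liver glycogen synthase, at 106.3, 188.3 and 195.4 against 93.3, 112.9 and 132.5 CPM (−0.53, SE 0.24, adjusted p = 0.455).

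**Figure D4:**
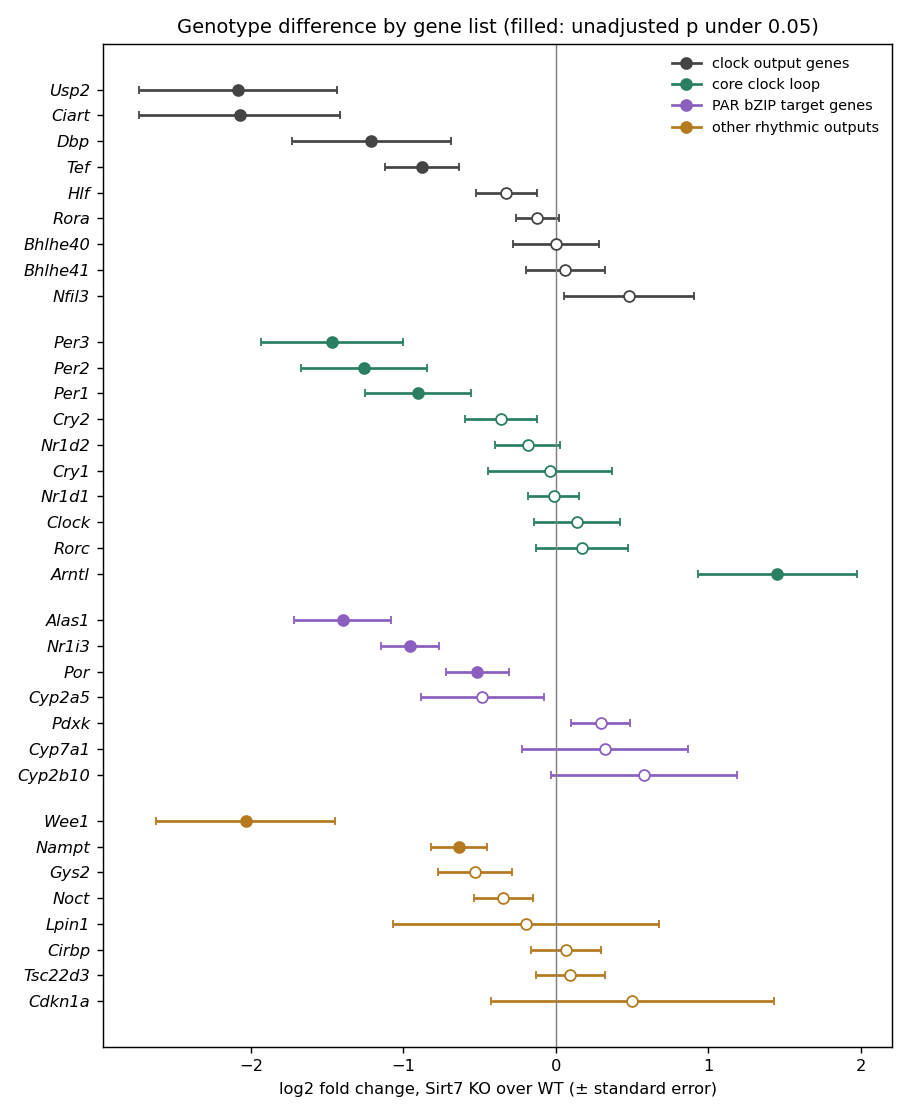
Log2 fold change (*Sirt7* KO over WT, ± SE, edgeR, n = 3 livers a genotype) of the tested genes of the 4 clock lists, sorted within each list. Filled points have an unadjusted p under 0.05 and open points do not; no point passed the adjusted threshold. *Usp2* and *Ciart* (both −2.08) and *Wee1* (−2.04) lie farthest to the left and *Arntl* (1.45) farthest to the right.

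Cell-type markers were given as summed CPM over each list, and their part in the results was not tested. None of the marker genes that passed the filter had an unadjusted p under 0.05. Kupffer cell markers ranged from 45.9 to 102.7 CPM in WT and from 43.7 to 129.2 in *Sirt7* KO mice, endothelial markers from 56.3 to 71.1 and 61.8 to 90.8, stellate cell markers from 174.6 to 220.7 and 134.5 to 218.6, cholangiocyte markers from 6.10 to 9.44 and 7.80 to 13, and lymphocyte markers from 3.54 to 5.70 and 2.51 to 5.40. All of these ranges overlapped between the genotypes. Of 6 lymphocyte markers 2 passed the filter, and *Cd3g* was at 0 in at least 1 liver. The Kupffer cell sum was highest in *Sirt7* KO replicate 1 (129.2 CPM) and WT replicate 3 (102.7 CPM), the livers with the lowest and the highest *Dbp* level, and was 43.7 to 93.6 CPM in the other livers. The hepatocyte sum was highest in KO replicate 2.

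*Tef*, *Usp2* and *Rora* are transcribed from distinct starts, and coding transcripts were grouped by start after the gene-level values were seen, as a description of Salmon's transcript estimates, which split reads shared by both starts. The upstream transcript of *Tef* (ENSMUST00000109553.9) starts at chr15:81802421, before the window printed as Tef upstream, which was placed by a RefSeq start. The printed window is therefore not the promoter of this transcript. From this upstream start, *Tef* was at 51.4, 58.2 and 81.8 CPM in WT and 30.0, 24.3 and 35.2 CPM in KO mice, without overlap. From the downstream start (ENSMUST00000023024.7) it was at 32.4, 46.1 and 47.2 against 9.12, 32.3 and 42.6 CPM, with overlap. On the scale of log2(CPM + 0.5), the genotype means differed by −1.07 upstream and −0.81 downstream. In CPM, the upstream means were 63.8 ± 16.0 in WT and 29.8 ± 5.47 in KO mice (SD). The downstream means were 41.9 ± 8.25 and 28.0 ± 17.1 CPM, with KO replicate 1 the lowest liver. In *Usp2*, the upstream start (ENSMUST00000034508.13, encoding the longer protein) was at 10.3, 15.2 and 25.2 CPM in WT and 1.28, 4.22 and 5.97 CPM in KO mice without overlap. The downstream start (ENSMUST00000065461.8 and ENSMUST00000176416.7, whose promoter is printed) was at 10.1, 33.8 and 39.7 against 1.92, 4.44 and 10.9 CPM, where the overlap rested on KO replicate 3 being just above WT replicate 1. On the same log2 scale, the genotype means differed by −2.11 upstream and −2.25 downstream. *Usp2* was thus lower by about as much at both starts, and no difference between starts was tested. In *Rora*, the upstream start (ENSMUST00000034766.13) was at 18.6, 20.9 and 20.2 against 19.4, 15.8 and 9.53 CPM, and the downstream start (ENSMUST00000113624.2) at 34.3, 28.0 and 37.7 against 30.98, 35.4 and 34.6 CPM. The downstream share of *Rora* was 57.3 to 65.1% in WT and 61.5 to 78.4% in KO mice.

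**Figure D5:**
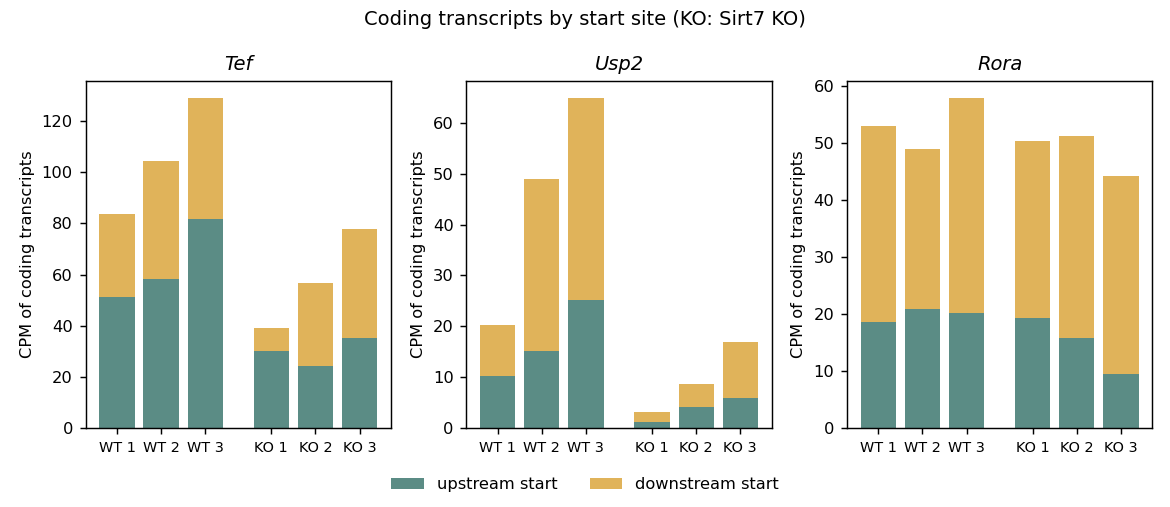
CPM of the coding transcripts of *Tef*, *Usp2* and *Rora* in each liver, stacked by start site (green, upstream; yellow, downstream), as Salmon assigned the reads. The green part of *Tef* and *Usp2* is lower in every KO liver than in every WT liver, and the yellow part of *Rora* stays between 28.0 and 37.7 CPM.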

How the data were processed

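RNA of 6 livers was reverse transcribed from 1 ng of total RNA with the SMART-seq HT kit, made into libraries with Nextera XT, a kit that does not mark strand, and sequenced as 75-base single-end reads. Per the labels and the study's methods, the authors trimmed reads with Trim Galore 0.6.5 and quantified them on the GRCm38 transcriptome with Salmon 1.2.1. The deposited files give, per transcript, estimated counts, TPM and lengths. The annotation release is not given in the sources used here.

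Of 140992 transcript identifiers, 139172 matched GENCODE M21 in the same version and 619 in another, while 1201 (0.303 to 0.492% of reads) had no gene and were left out. Counts were summed by gene, rounded and tested with edgeR 4.0.16 in R 4.3.3 (TMM scaling, filterByExpr with a minimum count of 10, quasi-likelihood test, Benjamini-Hochberg adjustment over 12524 genes). A gene was called at adjusted p under 0.05 and a fold change over 1.5. CPM are counts scaled to library size after TMM, and TPM were summed by gene. Ratios used reads plus 0.5 and an exact permutation test. DESeq2 1.42.0, length offsets, other scalings and filters, coding transcripts, a replicate block and leaving out each liver were alternatives. The scripts were tested on simulated data.

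The 9 members and all gene lists were chosen with earlier results of these data known, so no list supports another. Named genes are all members, *Sirt7*, the 3 genes of smallest unadjusted p in each clock list and the 5 genes closest to *Dbp*. Other genes are named for their place in a list or where said. Marker lists are given as counts and sums, and their genes of smallest p were not given singly. No pair of livers of a genotype agreed within sampling noise, as copies of the same library would (chi-square per gene 16.9 to 76.5), and each labelled replicate was counted once. The precision is limited by the spread between 3 livers per genotype.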

Additional observations from a re-analysis of the deposited data

How the results depend on the processing

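The members' values were recomputed under 10 other ways of scaling, filtering or fitting and by leaving out each liver. Of 144 member values over these 16 settings, 121 kept their direction and their side of the threshold, 9 became called and 14 turned direction. The number of members called was 0 as reported, 4 without the filter on low counts, 1 in DESeq2 without and 1 with length offsets, 4 at unadjusted p under 0.05 with a fold over 1.5, and 0 to 0 on leaving out 1 liver. Over all genes the calls numbered 1 as reported, 633 without the filter, 257 and 240 in DESeq2 without and with length offsets, 2 with total counts, 2 in edgeR with length offsets, 252 without *Sirt7* KO replicate 1 and 2 without WT replicate 1. The cause was not tested.

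Across all tested genes, same-numbered livers did not deviate together from their group means (r = 0.0652, 0.08 and −0.0437). The numbers were therefore not taken as pairs, and not every liver was most like its own number. Some members did share an order by number. *Dbp*, *Tef*, *Ciart* and *Usp2* rose from replicate 1 to 3 in both genotypes and *Nfil3* fell, while *Hlf*, *Bhlhe40*, *Bhlhe41* and *Rora* had no shared order. The reason was not tested. With a replicate block, 3 members were called (*Dbp*, *Ciart* and *Usp2*, adjusted p = 0.0455, 0.025 and 0.0357, edgeR), and 41 genes in all. The SE of *Dbp* was 0.18 with the block and 0.52 without.

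The number of members lower ranged from 5 to 8 (6 to 8 on leaving out 1 liver), and the number at unadjusted p under 0.05 from 3 to 5 (2 to 6). The median log2 fold change of the members was −0.69 in both DESeq2 and edgeR with length offsets, and −0.52 to −0.19 on leaving out 1 liver. *Bhlhe40* turned to −0.0145 with upper quartile scaling, −0.11 with total counts, −0.0079 at a mean of at least 50 counts, −0.0246 with coding transcripts and −0.0443 with the replicate block (−0.16 to 0.27 on leaving out 1 liver). *Bhlhe41* turned to −0.0255 with total counts (−0.20 to 0.23). *Rora* turned to 0.0391 in DESeq2 and 0.028 in edgeR with length offsets (−0.19 to −0.06). Total-count scaling moved the median of all genes from −0.0061 to −0.11. On leaving out 1 liver, *Dbp* ran from −1.69 to −0.80, *Tef* from −1.11 to −0.67, *Ciart* from −2.53 to −1.59, *Usp2* from −3.08 to −1.62, *Hlf* from −0.52 to −0.19 and *Nfil3* from 0.08 to 1.04. The *Dbp* to *Nfil3* difference ran from −2.75 to −0.87 and that of *Dbp* to *Arntl* from −3.77 to −2.01.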

Other observations

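The transcripts that made up *Dbp* reads differed between livers in Salmon's estimates. The retained-intron transcript ENSMUST00000211748.1 took 10.6, 9.0 and 11.7% of *Dbp* reads in WT livers and 30.4, 22.9 and 11.7% in *Sirt7* KO livers, higher in both KO livers with the least *Dbp*. The coding transcript ENSMUST00000211357.1 took 6.23, 11.7 and 7.49% in WT mice and was given no reads in any KO liver, on 147 to 642 *Dbp* reads. These shares were not tested.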
